A study of Homo sapiens with 6 samples.

Results

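Phosphorylation of the translation factor eIF2 is the shared entry point of the integrated stress response, and the 10 genes described here encode its kinases and the regulators that act downstream: EIF2AK1, EIF2AK2, EIF2AK3, EIF2AK4, ATF4, ATF5, ATF3, DDIT3, TRIB3 and PPP1R15A. They were selected by gene name, with earlier results of these data known. All 10 were found among the 60835 distinct gene names of the deposited tables and among the 15346 genes with enough reads to test. The RNA was from HEY, a cell line established from a human ovarian cancer. By title and genotype label, 3 libraries are siNC, taken here as the control siRNA, and 3 are siCCNL2, an siRNA against CCNL2, the gene of cyclin L2. The treatment protocol, however, names the siRNA against CCNL2, for 48 h, for all 6 libraries, the siNC ones included, so the grouping rests on title and genotype alone. No other agent or allele is named. The labels are silent on whether a group's libraries were separate cultures, and the p-values therefore reflect the spread between these libraries alone, which may be technical.

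As background, each of the 4 kinases phosphorylates the alpha subunit of eIF2 on sensing a different disturbance: EIF2AK1 (HRI) heme shortage and mitochondrial stress, EIF2AK2 (PKR) double-stranded RNA, EIF2AK3 (PERK) unfolded protein in the endoplasmic reticulum, and EIF2AK4 (GCN2) amino acid shortage. Phosphorylated eIF2 blocks its exchange factor eIF2B, which lowers general translation while raising translation of ATF4, a bZIP transcription factor. ATF4 raises transcription of amino acid synthesis and transport genes and of further regulators, among them DDIT3, which encodes CHOP. PPP1R15A, which encodes GADD34, brings a phosphatase to eIF2 and so closes the loop. Kinase activity, eIF2 phosphorylation and translation of ATF4 are not seen in RNA counts, which show transcript levels alone.

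Total counts per library ran from 13596286 to 18095529. CCNL2, the targeted gene, fell by 0.44 on the log2 scale (SE 0.044). Its adjusted p was 2.15e-08 in the edgeR quasi-likelihood test used throughout, and levels were 258 ± 10.8 CPM (counts scaled to 1000000 per library, mean ± SD, n = 3) in siNC and 190 ± 11.2 CPM in siCCNL2. The carcinoma markers PAX8, KRT7, KRT8 and KRT18 were present in all libraries, at no less than 80.4 in the deposited TPM-like score, and so was VIM, at no less than 1640. EPCAM (2.72 to 5.86), WT1 (5.15 to 8.66) and MSLN (1.65 to 2.8) were low in the same score, and MUC16 had at most 7 counts. The summed score of these 9 markers was 4710 to 4780 in siNC and 3900 to 4130 in siCCNL2, without overlap. Of 4 leukocyte markers 3 (PTPRC, CD3E and CD79A) and of 4 fibroblast markers 2 (COL3A1 and DCN) had at most 5 counts in any library. The summed score of the 4 leukocyte markers was 0.496 to 1.85 in siNC and 0.665 to 0.974 in siCCNL2, and that of the 4 fibroblast markers 5.83 to 6.55 and 3.6 to 4.78. The summed score of 3 endothelial markers was 84.7 to 89.0 in siNC and 33.2 to 40.2 in siCCNL2, nearly all of it CDH5, with PECAM1 at 12 to 44 counts and VWF at 12 to 18. The mitochondrial share of counts was 3.22% to 3.39% in siNC libraries and 3.43% to 3.77% in siCCNL2 libraries, also without overlap. The carcinoma, endothelial and fibroblast sums and the mitochondrial share thus all moved with the group, and their part in the results was not tested. In bulk RNA, fewer cells that express a gene and less RNA per cell cannot be told apart.

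Of the 10 genes, 7 rose in siCCNL2, 0 fell and 3 were not called at an adjusted p under 0.05. Among all tested genes, 17.2% were called higher and 16.5% lower. The 6 regulators downstream of eIF2 all passed the test, as did 1 of the 4 kinases, EIF2AK4. Rises ran from 0.19 for EIF2AK4 to 1.18 for DDIT3 on the log2 scale, and the median over the 10 genes was 0.30, against 0.002 over all tested genes. All 10 log2 fold changes were positive, so no gene could be called lower at an unadjusted p under 0.05 either. The DESeq2 Wald test and limma-voom also called 0 of the 10 lower. The 3 siCCNL2 libraries lay above the 3 siNC libraries for 6 of the 10 genes in CPM, and also in the score, which holds the same measurement. In CPM, 43.9% of all tested genes showed no overlap between the groups, counting both directions.

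**Figure D1:**
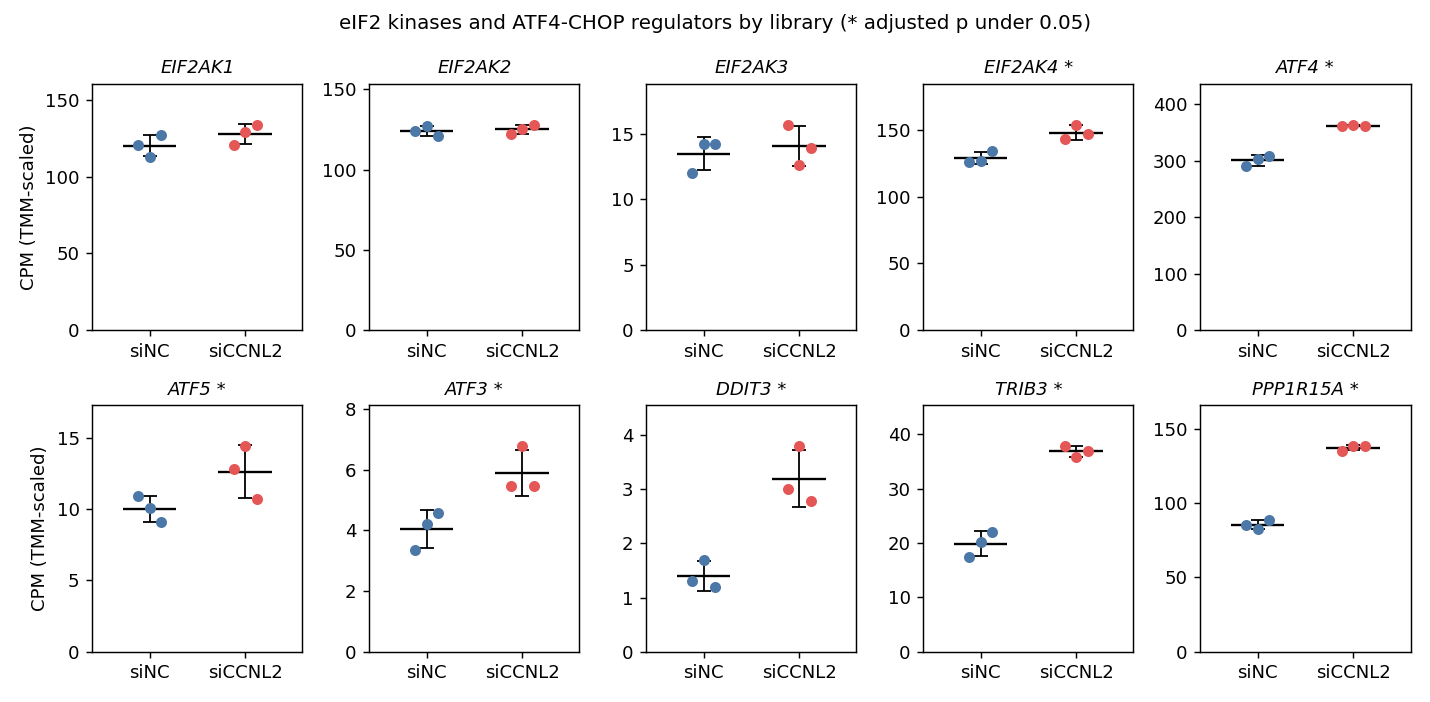
CPM in each library (points), with the mean (long bar) and SD (whiskers) of 3 libraries per group; the vertical axes start at 0 and differ between panels. ATF4, PPP1R15A, TRIB3, DDIT3, ATF3 and EIF2AK4 show no overlap between siNC and siCCNL2, and EIF2AK2 stands at 124 and 125 CPM on average.

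Upstream sequences of 3 of the regulators are shown because these genes rose and held a searched element clear of GENCODE 29 exons. RefSeq promoter windows (GRCh38.p14) were found for 9 of the 10 genes, in 16 windows, and EIF2AK1 had none. The 250 bases before each annotated start were searched. Capitals mark exact matches on either strand to TGATGNAA (the CARE, at which ATF4 and C/EBP proteins bind), TGACGTCA (the CRE, bound by CREB and ATF factors) or CCAAT (the CCAAT box, ATTGG on the other strand). For PPP1R15A (chr19:48872352-48872381, plus strand) and DDIT3 (chr12:57520585-57520614, minus strand) 30 bases around the matches are printed, because they lie inside the gene's span in the deposited table. For ATF3 (chr1:212565157-212565333, plus strand) the 177 bases up to the deposited gene start are printed. All run 5′ to 3′ on the gene's strand.
PPP1R15A: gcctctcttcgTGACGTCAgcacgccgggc
DDIT3: CCAATgccggcgtgccactttctgATTGGt
ATF3: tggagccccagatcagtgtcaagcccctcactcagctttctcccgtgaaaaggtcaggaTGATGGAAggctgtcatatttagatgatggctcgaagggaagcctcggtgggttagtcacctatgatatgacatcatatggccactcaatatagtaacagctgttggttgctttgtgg

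The CRE of PPP1R15A began 58 bases before the RefSeq start, and PPP1R15A was the 1 gene of the 9 with this match, which 1.65% of all 35116 windows held. The CARE letters were found in 1 of the 9 genes, ATF3, 191 bases before its upstream start, and in 3.14% of all windows. CCAAT occurred in 4 of the 9 genes (EIF2AK2, EIF2AK3, ATF3 and DDIT3) and in 32% of all windows, with matches on both strands in DDIT3 and in EIF2AK3, which was not called. The longer ERSE, the element bound by ATF6 (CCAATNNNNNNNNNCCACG, which contains CCAAT), was in 0 of the 9 genes and in 0.074% of windows. A match describes letters and not a bound site, and the windows reach no further than 250 bases.

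Among the kinases, EIF2AK4 rose and the others did not pass the test. EIF2AK4, the GCN2 kinase that binds uncharged tRNA, stood at 126, 127 and 134 CPM in siNC and 143, 154 and 147 CPM in siCCNL2. Every siCCNL2 library was above every siNC library. EIF2AK4 rose by 0.19 on the log2 scale (SE 0.044, adjusted p = 0.00121), a rise of 14.4%. Over the libraries alone, a two-sided exact permutation test gave p = 0.1, which is the least that 3 against 3 allows. EIF2AK4 lies on chromosome 15 at 39934115 to 40035591 of GRCh38, as given in the deposited table.

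EIF2AK1, the heme-regulated kinase, stood at 121, 113 and 127 CPM in siNC and 121, 129 and 134 CPM in siCCNL2, so the groups overlapped. EIF2AK1 differed by 0.09 on the log2 scale (SE 0.049, adjusted p = 0.173), with an approximate 95% interval from 1.00-fold to 1.14-fold. EIF2AK1 shares 532 exon bases (9.6% of its exon length) with AIMP2 on the opposite strand, which averaged 33.7 CPM in siNC and 28.9 CPM in siCCNL2. AIMP2 was called lower (log2 change -0.22, adjusted p = 0.0314), a call lost without siNC replicate 2 (0.0531) or 3 (0.243) or siCCNL2 replicate 2 (0.103) or 3 (0.0859). The AIMP2 call held under 9 of 17 alternative analyses, and was also lost by the DESeq2 Wald test (0.0909) and by limma-trend on the score (0.0534). Use of strand in counting is not given in the sources used here. Reads in bases shared by opposite strands can therefore not be assigned. EIF2AK3, the PERK kinase of the endoplasmic reticulum membrane, stood at 12, 14.2 and 14.2 CPM in siNC and 15.7, 12.6 and 13.9 CPM in siCCNL2. The groups overlapped, with siCCNL2 replicate 1 highest and siNC replicate 1 lowest. EIF2AK3 differed by 0.07 on the log2 scale (SE 0.11, adjusted p = 0.669) and its interval, 0.91-fold to 1.22-fold, was the widest of the kinases. An annotated antisense gene, AC104134.1, shares 14.4% of the GENCODE 29 exon bases of EIF2AK3 and was counted 0 times in every library. EIF2AK3 runs from 88556741 to 88691518 in the deposited table but only to 88627576 in GENCODE 29. Overlaps were sought in the GENCODE span, so those of the longer deposited span were not tested.

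EIF2AK2, the PKR kinase that senses double-stranded RNA and is itself an interferon-induced gene, stood at 124, 127 and 121 CPM in siNC and 122, 125 and 128 CPM in siCCNL2. The groups overlapped, and the difference was 0.01 on the log2 scale (SE 0.043, adjusted p = 0.866), or -0.01 with upper-quartile factors. Its interval ran from 0.95-fold to 1.07-fold. Of 16 other tested genes of double-stranded RNA sensing and the interferon response, 7 fell, 0 rose and 9 were not called, with a median log2 fold change of -0.42. Lower calls made up 43.8% of these genes, against 16.5% of all tested genes, and higher calls 0.0%, against 17.2%. The 0 that rose held at an unadjusted p under 0.05, by the DESeq2 Wald test and by limma-voom, while 11 were lower at an unadjusted p under 0.05. Among those that fell were IRF1, an interferon response transcription factor (19.1 ± 0.573 to 12.1 ± 0.991 CPM, log2 fold change -0.66), OAS3, an oligoadenylate synthetase (-0.54), and STAT2 (-0.46). ADAR, an RNA editing enzyme that limits PKR activation, differed by 0.03 on the log2 scale (adjusted p = 0.624). Among proteins that bind PKR, TARBP2, an inhibitor, fell from 24.4 ± 0.358 to 17.7 ± 0.432 CPM (-0.46, adjusted p = 6.88e-05), and PRKRA, an activator, fell by 0.23 (adjusted p = 0.0223). Leaving out siNC replicate 3 (adjusted p = 0.168), siCCNL2 replicate 1 (0.0632) or siCCNL2 replicate 3 (0.0608) ended the PRKRA call, as did the DESeq2 Wald test (0.0779).

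**Figure D2:**
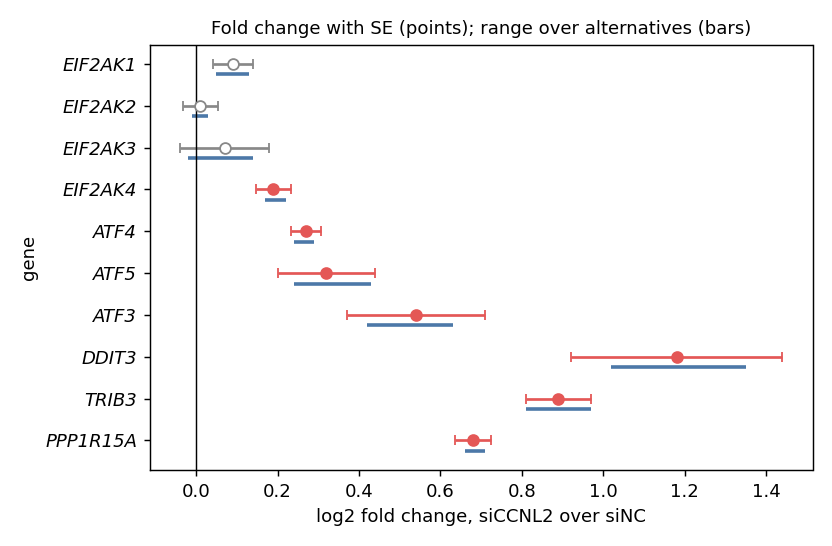
Log2 fold change of siCCNL2 over siNC with its standard error for the 10 genes (points; filled, adjusted p under 0.05), and the range of the same value over 17 alternative analyses (bars underneath). The bars of EIF2AK2 and EIF2AK3 cross 0, and those of all the other genes stay above it, including EIF2AK1, which was not called.

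ATF4, the transcription factor at the centre of the response, rose. Its level was 290, 304 and 309 CPM in siNC and 361, 364 and 362 CPM in siCCNL2. The siCCNL2 libraries lay close together and above all siNC libraries. ATF4 changed by 0.27 on the log2 scale (SE 0.036, adjusted p = 1.99e-06), a rise of 20.4%. ATF4 lies on chromosome 22 at 39519695 to 39522683, and no GENCODE 29 gene overlaps it. The rows of 4 ATF4 pseudogenes held at most 7 counts in any library.

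ATF5, a related bZIP factor linked to mitochondrial stress, stood at 10.9, 10.1 and 9.08 CPM in siNC and 12.8, 14.4 and 10.7 CPM in siCCNL2. The groups overlapped, since siCCNL2 replicate 3 lay below siNC replicate 1. ATF5 rose by 0.32 on the log2 scale (SE 0.12, adjusted p = 0.0437), and the call held under 6 of the 17 alternatives. Leaving out siNC replicate 2 (adjusted p = 0.0892), siNC replicate 3 (0.158), siCCNL2 replicate 1 (0.09) or siCCNL2 replicate 2 (0.194) ended it. NUP62, on the opposite strand, shares 626 exon bases with ATF5 (21.2% of its exon length) and averaged 129 CPM in siNC and 141 CPM in siCCNL2. NUP62 was called higher (log2 change 0.12, adjusted p = 0.0293), a call lost without siNC replicate 1 (0.0963) or 2 (0.0713) or siCCNL2 replicate 1 (0.0876) or 3 (0.117). The NUP62 call held under 7 of the 17 alternatives, and was also lost by the DESeq2 Wald test (0.0584) and by limma-trend on the score (0.112 and 0.115). IL4I1, also on that strand, shares 75 exon bases and fell by 1.02 (adjusted p = 4.06e-05). The part of reads from either neighbour in the ATF5 counts was not tested.

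ATF3, a stress-induced bZIP factor often acting as a repressor, was counted 57, 67 and 73 times in siNC and 100, 91 and 86 times in siCCNL2, or 3.36, 4.22 and 4.57 CPM against 5.47, 6.77 and 5.46 CPM. The groups did not overlap, with siNC replicate 1 lowest and siCCNL2 replicate 2 highest. ATF3 rose by 0.54 on the log2 scale (SE 0.17, adjusted p = 0.0196), and 13 of the 17 alternatives kept the call. Leaving out siNC replicate 1 (adjusted p = 0.108) or siCCNL2 replicate 2 (0.0904), the libraries at either end, ended it, as did the DESeq2 Wald test (0.077).

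DDIT3, whose product CHOP promotes cell death under lasting stress, had the largest fold change of the 10 genes and few reads. It was counted 22, 27 and 19 times in siNC and 55, 51 and 44 times in siCCNL2. The exact Poisson 95% interval, which covers counting error only, was 17.8 to 39.3 for the highest siNC library and 32.0 to 59.1 for the lowest siCCNL2 library. In CPM these were 1.3, 1.7 and 1.19 against 3.01, 3.79 and 2.79. All siCCNL2 libraries lay above all siNC libraries, and DDIT3 rose by 1.18 on the log2 scale (SE 0.26, adjusted p = 8.71e-04), a 2.27-fold rise with an interval from 1.6-fold to 3.23-fold. All 17 alternatives kept this call. DDIT3 (chromosome 12, 57516588 to 57521737, minus strand) shares 355 exon bases, 27.2% of its exon length, with MARS1 (MARS in GENCODE 29) on the opposite strand and 105 with AC022506.1, an overlapping gene model on its own strand. MARS1, a methionyl-tRNA synthetase gene, was counted far more often (197 ± 1.84 CPM in siNC and 189 ± 5.9 CPM in siCCNL2, log2 fold change -0.06, adjusted p = 0.218). MBD6, also on the opposite strand, shares 58 exon bases and rose by 0.58 (adjusted p = 2.44e-07), and the part of both neighbours in the DDIT3 counts was not tested.

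TRIB3, a pseudokinase induced by ATF4 and CHOP that in turn restrains ATF4, stood at 17.5, 20.2 and 22 CPM in siNC and 37.8, 35.9 and 36.9 CPM in siCCNL2. The groups lay far apart relative to their spread. TRIB3 rose by 0.89 on the log2 scale (SE 0.080, adjusted p = 3.69e-09), a rise of 85.7%, and TRIB3 ranked 321 by p among all tested genes. PPP1R15A, the inducible regulatory subunit of the eIF2 phosphatase, stood at 85.2, 82.3 and 88.8 CPM in siNC and 135, 138 and 138 CPM in siCCNL2. It had the smallest p of the 10 genes, ranking 114 (log2 fold change 0.68, SE 0.045, adjusted p = 1.97e-11), a rise of 60.4%. By GENCODE 29 spans, neither TRIB3 (chromosome 20, 362835 to 397559) nor PPP1R15A overlaps another gene of that release. PPP1R15A lies on chromosome 19, at 48872212 to 48876059 as deposited and at 48872392 to 48876057 in GENCODE 29.

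**Figure D3:**
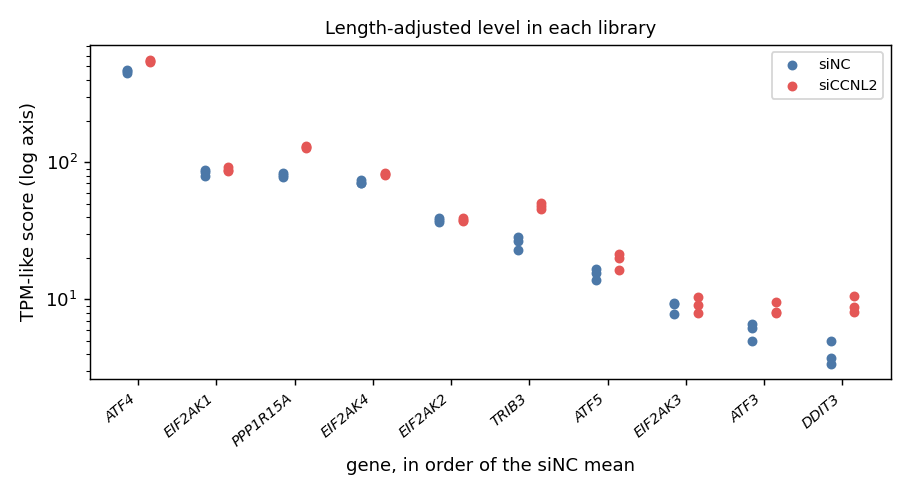
TPM-like score, a level adjusted for gene length, in each library on a log axis, with genes in order of their siNC mean. ATF4 is highest at 445.5 to 467.2 in siNC, and PPP1R15A, level with EIF2AK1 in siNC, stands above it in siCCNL2.

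Levels of different genes were compared on the deposited TPM-like score, which adjusts for gene length. In siNC the order was ATF4 (445.5 to 467.2), EIF2AK1 (79.5 to 87.7), PPP1R15A (78.4 to 83.4), EIF2AK4 (70.6 to 74.1), EIF2AK2 (36.5 to 39.0), TRIB3 (23.0 to 28.5), ATF5 (13.8 to 16.8), EIF2AK3 (7.89 to 9.34), ATF3 (4.95 to 6.63) and DDIT3 (3.4 to 4.94). EIF2AK1 and PPP1R15A overlapped in siNC, and no other neighbours in this order did. In siCCNL2 PPP1R15A reached 126.8 to 130.6, above EIF2AK1 at 85.8 to 93.1. TRIB3 reached 45.4 to 50.1, above EIF2AK2 at 37.1 to 38.9. The ranges of EIF2AK3 (7.99 to 10.4), ATF3 (7.97 to 9.61) and DDIT3 (8.04 to 10.6) overlapped in siCCNL2. Among the kinases, HRI and GCN2 transcripts scored highest and PERK lowest in every library. Without the length adjustment, EIF2AK1, EIF2AK2 and EIF2AK4 averaged 120, 124 and 129 CPM in siNC, so the lower rank of EIF2AK2 rests on that adjustment.

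Ratios of a pair of genes inside a library do not depend on the scaling between libraries, and 10 such log2 ratios of counts were compared. The ratio of TRIB3 to ATF4 was -4.05, -3.91 and -3.81 in siNC and -3.25, -3.34 and -3.29 in siCCNL2, a difference of 0.63. For DDIT3 to ATF4 the difference was 0.92, for PPP1R15A to ATF4 0.41 and for ATF3 to ATF4 0.28 (siCCNL2 minus siNC). For each of these 4 ratios the groups did not overlap, although siCCNL2 replicates 1 and 3 lay only 0.03 above siNC replicate 3 for ATF3 to ATF4 (-6.04 and -6.04 against -6.07). The difference for ATF3 to ATF4 was 0.17 without siNC replicate 1 and 0.18 without siCCNL2 replicate 2. The ratio of ATF5 to ATF4 overlapped between the groups (difference 0.06). The ratio of PPP1R15A to PPP1R15B, the inducible to the constitutive eIF2 phosphatase subunit, was -0.35, -0.35 and -0.31 in siNC and 0.42, 0.46 and 0.59 in siCCNL2, a difference of 0.82, so PPP1R15A had fewer counts than PPP1R15B in every siNC library and more in every siCCNL2 library. The ratio of DDIT3 to its neighbour MARS1 differed by 1.25, again without overlap. Each of the 6 ratios without overlap had an exact permutation p of 0.1, the smallest possible, or 0.167 adjusted over the 10 ratios, so none passes a threshold of 0.05. Ratios between kinases overlapped, with differences of -0.03 (EIF2AK3 to EIF2AK1), -0.14 (EIF2AK3 to EIF2AK4) and -0.08 (EIF2AK2 to EIF2AK1).

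**Figure D4:**
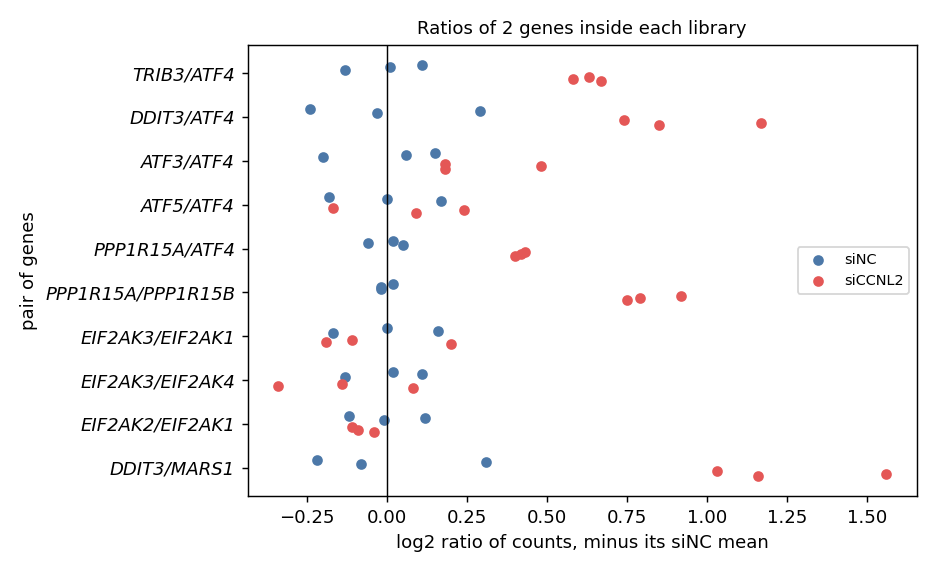
Log2 ratio of the counts of a pair of genes in each library, drawn relative to the siNC mean of that ratio. The siCCNL2 points lie apart from the siNC points for 6 of 10 ratios, widest for DDIT3 to MARS1 (difference 1.25), and mix with them for ATF5 to ATF4 and for the kinase pairs.

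Genes of the substrate and of the phosphatase were called in both directions. Of 9 genes of eIF2, eIF2B and the initiation factor gene EIF2A, 2 rose, 1 fell and 6 were not called (median log2 fold change 0.04). These shares, 22.2% higher and 11.1% lower, lie near the 17.2% and 16.5% of all tested genes. The eIF2B subunits EIF2B3 (0.26, adjusted p = 0.00127) and EIF2B1 (0.21, adjusted p = 0.00164) rose. EIF2B5, the catalytic subunit, fell by 0.15 (adjusted p = 0.0324), although its groups overlapped and it kept the call under 9 of 17 alternatives. Leaving out siNC replicate 1 (adjusted p = 0.104) or 3 (0.185) or siCCNL2 replicate 1 (0.155) or 2 (0.0679) ended the EIF2B5 call, as did the DESeq2 Wald test (0.0608). EIF2S1, the subunit that the kinases phosphorylate, averaged 253 ± 0.398 CPM in siNC and 247 ± 7.99 CPM in siCCNL2 (-0.03 on the log2 scale, adjusted p = 0.523).

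Of 13 regulators of the kinases and of the phosphatase, 4 rose, 5 fell and 4 were not called (median 0.08). That is 30.8% higher and 38.5% lower, against 17.2% and 16.5% of all tested genes. The phosphatase catalytic subunits PPP1CC (log2 fold change 0.34, adjusted p = 7.81e-08) and PPP1CB (0.15, adjusted p = 0.0103) rose and PPP1CA fell (-0.13, adjusted p = 0.0205). PPP1R15B, the constitutive counterpart of PPP1R15A, fell from 108 ± 2.54 to 97.8 ± 4.95 CPM (-0.14, adjusted p = 0.0274). The PPP1CA and PPP1R15B calls were both lost without siCCNL2 replicate 3 (adjusted p 0.0541 and 0.197). PPP1CA was also lost without siNC replicate 2 (0.136) or siCCNL2 replicate 2 (0.0792), and PPP1R15B without siNC replicate 1 (0.0821) or 3 (0.0871). The DESeq2 Wald test gave 0.0546 for PPP1R15B. DNAJC3, a co-chaperone that inhibits PERK and PKR, rose from 132 ± 3.75 to 166 ± 1.0 CPM (0.33, adjusted p = 5.13e-07), and HSPA5, the chaperone BiP that holds PERK inactive, rose by 0.19 (adjusted p = 4.94e-05).

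Genes of bZIP factors and of ATF4 turnover were called in both directions. Of 21 tested bZIP and ATF4 turnover genes 7 rose, 3 fell and 11 were not called (median 0.10). The shares were 33.3% higher and 14.3% lower, against 17.2% and 16.5% of all tested genes. The largest rises were ATF1 (25.2 ± 2.37 to 43.0 ± 2.16 CPM, log2 fold change 0.77), NFE2L1, which controls proteasome genes (0.67), JDP2, a repressor related to ATF3 (0.50), and ATF7 (0.41). JUNB (-0.63) and FOSL1 (-0.33), both AP-1 subunits, and FBXW11, a subunit of the ligase that degrades ATF4 (-0.18), fell. CEBPB, a C/EBP partner of ATF4, stood at 68.0 ± 4.26 and 67.6 ± 2.83 CPM (-0.01, adjusted p = 0.933). Of the other C/EBP genes listed, CEBPG rose from 44.0 ± 2.52 to 58.0 ± 0.887 CPM (0.40, adjusted p = 6.91e-06), called under all 17 alternatives. CEBPD rose by 0.36 (adjusted p = 0.0389), called under 9 of 17 and lost, among others, without siNC replicate 3 (0.179). CEBPA was not called (-0.19, adjusted p = 0.723). NUPR1, another stress regulator, and MAF were too low to test, with at most 3 and 0 counts per library.

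Of 44 other tested ATF4 target genes, 24 rose, 4 fell and 16 were not called (median 0.18). That is 54.5% higher and 9.09% lower, against 17.2% and 16.5% of all tested genes. The largest rises were the glycine transporter gene SLC6A9 (2.23 ± 0.356 to 4.29 ± 0.699 CPM, log2 fold change 0.95), the cystathionine synthase gene CBS (0.91), the mitochondrial carboxykinase gene PCK2 (0.82) and the peptide hormone gene ADM2 (0.77). GDF15, a stress-induced cytokine, fell from 33.1 ± 1.25 to 23.7 ± 1.77 CPM (-0.48, adjusted p = 2.00e-05), followed by the autophagy receptor gene SQSTM1 (-0.34), STC2 (-0.17) and EIF4EBP1, a translation repressor (-0.14). STC2 was not called once siCCNL2 replicate 1 was left out (adjusted p = 0.074), nor EIF4EBP1 without siNC replicate 1 (0.0573) or 3 (0.0777) or siCCNL2 replicate 2 (0.0953) or 3 (0.0598). ASNS, asparagine synthetase and a widely used ATF4 target, was too low to test, at 5 to 6 counts in siNC and 4 to 15 in siCCNL2. CHAC1, a glutathione-degrading enzyme induced downstream of ATF4, stood at 4.53 ± 0.441 and 4.76 ± 0.298 CPM (0.07, adjusted p = 0.775). ASNS and CHAC1 fall outside the rule for named genes and were picked after their values were seen. The same holds for ADAR, EIF2S1, GCN1 and the C/EBP genes above.

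Of 10 tested genes linked to CHOP in cell death and protein oxidation, 2 rose, 4 fell and 4 were not called (median -0.12). Among all tested genes, 17.2% were called higher and 16.5% lower. The share of rises in this list was thus near that of all tested genes, and the share of falls was above it. ERO1A, the disulfide oxidase of the endoplasmic reticulum, rose from 123 ± 2.36 to 225 ± 10.1 CPM (log2 fold change 0.87, adjusted p = 7.82e-14), and BBC3, the death effector PUMA, rose by 0.51 (adjusted p = 9.82e-05). TNFRSF10B, the death receptor DR5, fell from 388 ± 8.15 to 273 ± 4.73 CPM (-0.51, adjusted p = 4.93e-11). TSC22D3 (-0.55), GADD45B (-0.27) and GADD45A (-0.17) also fell.

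Genes of the other arms of the unfolded protein response, those of IRE1 and ATF6, gave 9 rises, 4 falls and 4 without a call among 17 (median 0.11). That is 52.9% higher and 23.5% lower, against 17.2% and 16.5% of all tested genes. CRELD2 (0.51), SDF2L1 (0.47), HERPUD1 (0.39) and XBP1, the factor spliced by IRE1 (69.0 ± 1.61 to 90.3 ± 4.3 CPM, 0.39), rose. ERN1, the gene of IRE1 itself, fell from 38.2 ± 0.632 to 29 ± 1.84 CPM (-0.39, adjusted p = 6.09e-05), as did DNAJB9 (-0.44), SYVN1 (-0.34) and MBTPS2 (-0.20). DNAJB9 was not called once siNC replicate 1 (adjusted p = 0.092) or siCCNL2 replicate 2 (0.0536) was left out, nor MBTPS2 without siNC replicate 2 (0.0816) or siCCNL2 replicate 1 (0.0856) or 2 (0.0724). HSPA5 belongs to this list and to that of the kinase regulators, ATF6 to this list and that of the bZIP genes, and CEBPG to the bZIP genes and the ATF4 targets.

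**Figure D5:**
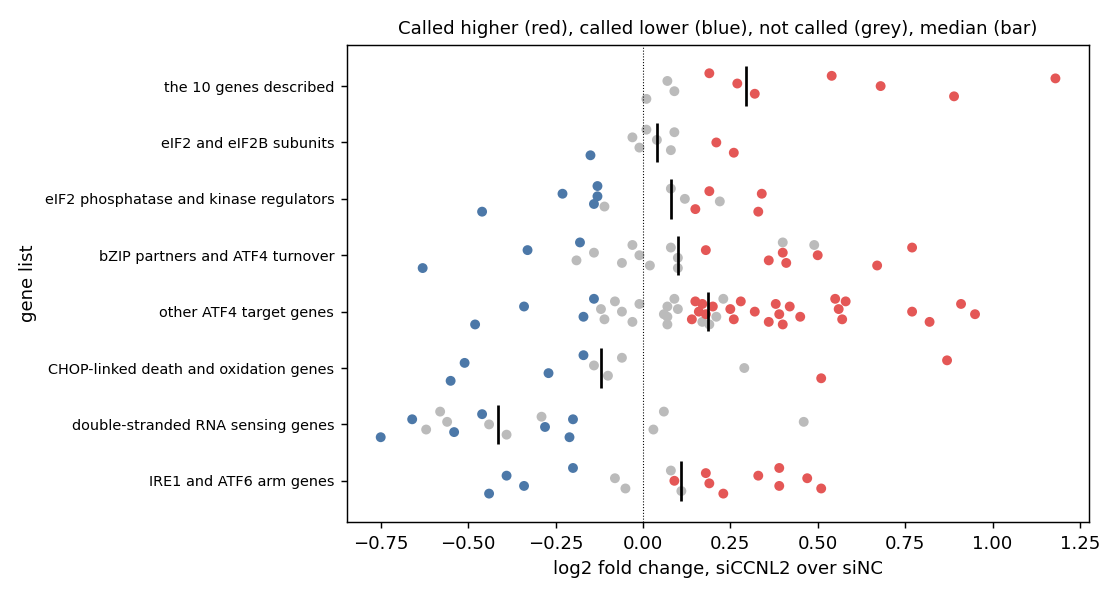
Log2 fold change of siCCNL2 over siNC for each tested gene of 8 lists; red, called higher; blue, called lower; grey, not called; the bar is the list's median and vertical spread within a list has no meaning. The 10 genes described have a median of 0.30, and the double-stranded RNA sensing genes, at -0.42, hold no red point.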

How the data were processed

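Tools listed, per the submitters' processing notes and without their roles, include the read trimmer fastp (0.23.0), the aligner HISAT2 and the counter HTSeq (2.0.1), and the build is GRCh38. Whole-number counts of reads for each gene were deposited for 6 libraries. A second table holds a TPM-like score that the authors deposited, summing to 1000000 per library over distinct names. Each of the 60835 names was used once. Its values repeat where a name has several rows. In 10902 genes the quotient of count and score split into a gene factor times a library factor to within 2.64e-09, so the tables hold 1 measurement.

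Genes were kept by filterByExpr (15346, at least 99.76% of counts) and tested genome-wide with edgeR 4.0.16 in R 4.3.3 (TMM factors, glmQLFit, glmQLFTest, no covariates, Benjamini-Hochberg adjustment over all tested genes). Calls required an adjusted p under 0.05. CPM are TMM-scaled, the SE is the log2 fold change over the square root of F, and approximate 95% intervals come from that SE. Exact two-sided permutation tests used log2 of CPM plus 0.5, and ratios used log2 of counts plus 0.5 (scipy 1.17.1). On counts simulated from these libraries, 14869 of 15062 tested genes were left unchanged and 47 to 49 were changed at each fold. Recovery was 53.1% for changes of 1.25-fold, 69.4% for 1.5-fold, 78.7% for 2-fold and 93.8% for 3-fold, beside 7 false calls. In the deposited counts 5159 of 15346 genes were called, and recovery with that many changed genes was not tested. Chi-square per gene between same-group libraries was 2.2 to 3.66, above sampling noise, and they were counted as separate samples. Overlapping genes came from GENCODE 29 (GRCh38) by Ensembl identifier, over the GENCODE span, which differs from the deposited span for some genes. The 10 genes, the gene lists and the rule for other named genes (up to 4 largest called changes per direction and list, with at least 1 CPM in the higher group, and overlapping genes, CCNL2 and genes of a ratio) were chosen with earlier results of these data known. A gene that this rule selects is not reported here.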

Additional observations from a re-analysis of the deposited data

How the results depend on the processing

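Over 17 alternatives (DESeq2 1.42.0 size factors, upper-quartile or no composition factors, no count filter or a minimum of 1 CPM in 3 libraries, limma-voom (limma 3.58.1) or the Wald test of DESeq2, limma-trend with 1 or 0.1 added to the score, a threshold of 0.01, a replicate block, and each library left out) the number of the 10 genes called higher ran from 5 to 7 and the number called lower was 0. Leaving out 1 library gave 5 to 7 higher. TRIB3, DDIT3, PPP1R15A, ATF4 and EIF2AK4 were called under all 17. ATF5 also lost its call with upper-quartile factors (adjusted p = 0.0576), without a count filter (0.0574), by limma-voom (0.0559), by the DESeq2 Wald test (0.13) and on the score (0.0857 and 0.083), and ATF5 and ATF3 both at 0.01. Same-numbered libraries did not deviate together (r = 0.043, 0.023 and 0.026 for numbers 1, 2 and 3), though each correlated best with its own number, and the replicate block again called 7 of the 10 genes higher and 0 lower, with 5234 genes called in all against 5159. The log2 fold change of EIF2AK2 turned to -0.01 with upper-quartile factors, -0.0045 without siNC replicate 3 and -0.0034 without siCCNL2 replicate 3. Leaving out 1 library, it lay between -0.0045 and 0.03. That of EIF2AK3 turned to -0.01 without siNC replicate 1 and -0.02 without siCCNL2 replicate 1, at most 0.14. The ratio of ATF5 to ATF4 turned to -0.03 without siNC replicate 3 and -0.04 without siCCNL2 replicate 2 (at most 0.17), and that of EIF2AK3 to EIF2AK1 to 0.05 without siNC replicate 2, 0.05 without siCCNL2 replicate 2 and 0.01 without siCCNL2 replicate 3 (at least -0.15). For these reversals the cause was not tested. The other 8 ratios kept their direction, though ATF3 to ATF4 (0.28) ran from 0.17 to 0.35 with 1 library left out. Of the list counts, 14 of 238 moved by over 1.5 times, all of them counts of genes called lower. DDIT3 and ATF3 rest on at most 100 counts per library, which limits their precision.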
